A study of Mus musculus with 20 samples.

Results

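The genes described here were 43 members of the nuclear receptor family. They were chosen by name, and all 43 were found among the 21938 protein-coding genes of the GENCODE M21 annotation of GRCm38. Not every receptor of the mouse was a member, and Esrrb, Nr5a2 and Hnf4a were not. Around the members lay 496 of the 102373 listed peaks, each at most 50000 bp from a receptor gene. For comparison the genes were put into 3 classes from general knowledge of where each receptor is used: 14 broadly used receptors with roles in ES cells or most cells, 6 inducible receptors and 23 lineage-restricted receptors. Expression was not measured in these data, so the classes were not checked against it.

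The peaks came from ATAC-seq, in which a transposase cuts accessible DNA, in ZHBTc4 mouse ES cells grown in serum with 2i inhibitors and LIF. In this line doxycycline (dox) switches off the Tet-regulated copy of Pou5f1 that supplies OCT4. Cells carried either SNAP-MD-OCT4, an OCT4 fused to a mitotic degron and lost as cells pass from mitosis into G1, or SNAP-MD*-OCT4, whose degron was mutated and inactive. Both lines also carried YPet-MD, and the fusions were brought in by lentivirus. The cells with dox were kept for 40 h at 1 ug/ml and sorted by YPet-MD and Hoechst signal into 4 fractions (early G1, late G1, S, late S/G2), with 2 replicates for each construct and phase. These 16 libraries in 8 groups were merged by the authors into 1 list of peaks. The 4 unsorted libraries without dox, 2 for each construct, did not enter it. A peak in the list was called in at least 1 of the 16 libraries, and nothing in the list says in which. MD-OCT4 and MD*-OCT4, the phases and the replicates therefore cannot be told apart below, no replicate error exists, the depth is unknown, and no test was made. Where a gene lacks a listed peak, closed chromatin was not measured.

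Nuclear receptors are transcription factors, many of which are switched by a small lipid-soluble ligand such as a steroid, a retinoid or a fatty acid. Most bind as dimers to copies of a short half-site, and the number of bases between the copies helps to decide which receptor binds: retinoic acid receptors prefer direct repeats with wide spacing, and several orphan receptors bind a single extended half-site. In ES cells some of these proteins are tied to the pluripotency network, among them NR0B1 (DAX1), while NR6A1 (GCNF) represses Pou5f1 when the cells differentiate.

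The sequences shown first are those of receptor genes on which the results turn. They were read from GRCm38 or from the promoter table of RefSeq for GRCm38.p6, in which a promoter spans 250 bases before to 50 after the start of a transcript. Capitals mark every CG in the promoters of Nr1h2, a broadly used receptor whose start lay in a listed peak, and of Nr1i3, a lineage-restricted receptor of liver without one.
Nr1h2 chr7:44553916-44554215 (minus strand): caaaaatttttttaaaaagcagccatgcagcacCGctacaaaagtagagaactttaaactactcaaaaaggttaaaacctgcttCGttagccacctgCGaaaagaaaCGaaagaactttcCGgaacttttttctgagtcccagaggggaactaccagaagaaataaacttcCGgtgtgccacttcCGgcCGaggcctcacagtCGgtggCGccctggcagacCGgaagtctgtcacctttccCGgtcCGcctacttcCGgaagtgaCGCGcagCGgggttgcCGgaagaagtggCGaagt
Nr1i3 chr1:171213720-171214019 (plus strand): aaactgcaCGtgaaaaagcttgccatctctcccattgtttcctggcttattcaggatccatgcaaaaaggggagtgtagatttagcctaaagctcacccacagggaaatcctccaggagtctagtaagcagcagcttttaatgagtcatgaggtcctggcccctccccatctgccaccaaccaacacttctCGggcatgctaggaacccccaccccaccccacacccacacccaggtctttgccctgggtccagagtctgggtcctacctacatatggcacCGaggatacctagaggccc
The Nr1h2 stretch held 19 CG and the Nr1i3 stretch 3, beside a median of 7 in the 32851 promoters of the table. Of those promoters, 71.9% held fewer CG than Nr1h2 and 23.3% fewer than Nr1i3. The pair is an illustration: the promoter of Nr0b2 also held 3 CG, and a listed peak overlapped it.

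The next set shows receptor genes whose peaks held a match to a receptor motif. The half-site was searched on both strands as AGGTCA, with G also allowed as the first letter and T as the third, and DR1, DR2, DR4 and DR5 are direct repeats of it with 1, 2, 4 or 5 bases between. In the Rarb promoter the capitals mark a DR5, which begins 53 bases before the RefSeq start. Rarb is a textbook target of retinoic acid receptors.
Rarb chr14:16575427-16575726 (minus strand): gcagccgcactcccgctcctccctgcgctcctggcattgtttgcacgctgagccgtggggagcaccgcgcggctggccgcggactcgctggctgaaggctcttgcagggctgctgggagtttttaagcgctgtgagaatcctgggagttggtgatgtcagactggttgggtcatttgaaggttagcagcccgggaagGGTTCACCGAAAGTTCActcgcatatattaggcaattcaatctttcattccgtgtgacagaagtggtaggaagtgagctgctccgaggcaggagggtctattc
The stretches below show the match in capitals with 20 bases on each side, for the DR5 upstream of Nr4a1, the DR1 in the promoter peak of Esrra, and the DR2 in the promoter peak of Nr6a1.
Nr4a1 chr15:101234104-101234160 (minus strand): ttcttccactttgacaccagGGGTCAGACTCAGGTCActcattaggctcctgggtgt
Esrra chr19:6921297-6921349 (minus strand): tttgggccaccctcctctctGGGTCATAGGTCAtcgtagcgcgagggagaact
Nr6a1 chr2:38925339-38925392 (plus strand): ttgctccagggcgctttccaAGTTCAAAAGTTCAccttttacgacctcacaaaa
A DR5 stood in 0.0974% of the RefSeq promoters and in 0.312% of all listed peaks. The corresponding shares were 0.222% and 0.416% for DR1, and 0.268% and 0.554% for DR2. Among the 57 RefSeq promoters of receptors (39 receptors had at least 1 in the table), the Rarb promoter was the only one with a direct repeat of these kinds.

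The last set shows the 4 peaks near receptors that matched the composite OCT4::SOX2 motif, bound by the factor that these cells were built to deplete and its partner. Up to 2 mismatches were allowed, and the match is in capitals. In the peak upstream of Nr3c2, printed whole, the first capitals mark the extended half-site TCAAGGTCA, bound by estrogen-related receptors, and the second the composite motif.
Nr3c2 chr8:76863153-76863435 (plus strand): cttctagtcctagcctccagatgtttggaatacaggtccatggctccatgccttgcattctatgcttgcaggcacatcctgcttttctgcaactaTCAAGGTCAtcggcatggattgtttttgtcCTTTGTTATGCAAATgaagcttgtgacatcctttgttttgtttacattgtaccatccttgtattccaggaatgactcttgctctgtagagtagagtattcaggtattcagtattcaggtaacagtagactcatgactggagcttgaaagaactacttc
Nr1h4 chr10:89471071-89471125 (plus strand): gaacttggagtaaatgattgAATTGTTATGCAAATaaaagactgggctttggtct
Rxra chr2:27684444-27684498 (plus strand): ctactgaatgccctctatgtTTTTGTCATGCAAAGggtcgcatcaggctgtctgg
Thra chr11:98742010-98742064 (plus strand): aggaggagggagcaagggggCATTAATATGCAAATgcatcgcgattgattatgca
These motifs overlap by design: TCAAGGTCA contains the half-site AGGTCA, and the octamer ATGCAAAT is the second part of the composite motif. The match near Nr3c2 had 0 mismatches, that of Nr1h4 had 1, and those of Rxra and Thra had 2. A match is a description of the letters and not a bound site.

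Of the 43 receptor genes, 39 (90.7%; 95% Wilson interval 78.4 to 96.3) had a listed peak at most 1000 bp from the transcription start site (TSS) of a protein-coding transcript, against 69.4% of all protein-coding genes. All 14 broadly used and all 6 inducible receptors had such a promoter peak, and so did 19 of the 23 lineage-restricted ones (82.6%; interval 62.9 to 93.0). The interval for the 14 broadly used genes was 78.5 to 100, so the intervals of the 2 classes overlapped. These intervals cover counting error only and treat genes as independent. Receptor genes also had more TSS at which a peak could fall, with a median of 3 protein-coding TSS against 2 for all genes. When only the annotated 5′ end counted, 36 of the 43 receptors had a peak, against 66.1% of genes.

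The 4 receptors without a promoter peak were all lineage-restricted. Nr1i2 (chr16:38248323-38294824) and Nr1i3 encode PXR and CAR, the xenobiotic sensors of liver. The 5′ end of Nr1i2 lay 5653 bp from the nearest peak, a 218-bp peak in its own intron, and that of Nr1i3 lay 4634 bp from a 482-bp peak in one of its exons, which also lies in Tomm40l. Nr2e3, a receptor of photoreceptors, had 1 protein-coding TSS, 6446 bp from the nearest peak, while a 699-bp peak stood at the start of one of its non-coding transcripts. Esr1 encodes estrogen receptor alpha. Its 5′ end was 12909 bp from a peak, and the TSS of Esr1-202 and Esr1-203, located 98562 bp downstream, was 1834 bp from a 955-bp peak at the start of a non-coding Esr1 transcript. In each of the 4 genes every protein-coding TSS had few CpG, with an observed over expected ratio between 0.0923 (at Nr1i3) and 0.469 (at Esr1). A lack of a promoter peak did not go with an empty neighbourhood. Within 50000 bp of the 5′ end there were 15 peaks around Nr1i3, 11 around Nr1i2, 9 around Nr2e3 and 4 around Esr1. At Nr1i3 none of the 15 was nearer to it than to the 5′ end of another coding gene, and 7 of the 16 peaks near the gene stood at TSS of other genes, among them Pcp4l1, Tomm40l, Adamts4 and B4galt3. At Nr1i2, 10 of the 15 peaks near the gene lay inside Gsk3b or Maats1.

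**Figure D1:**
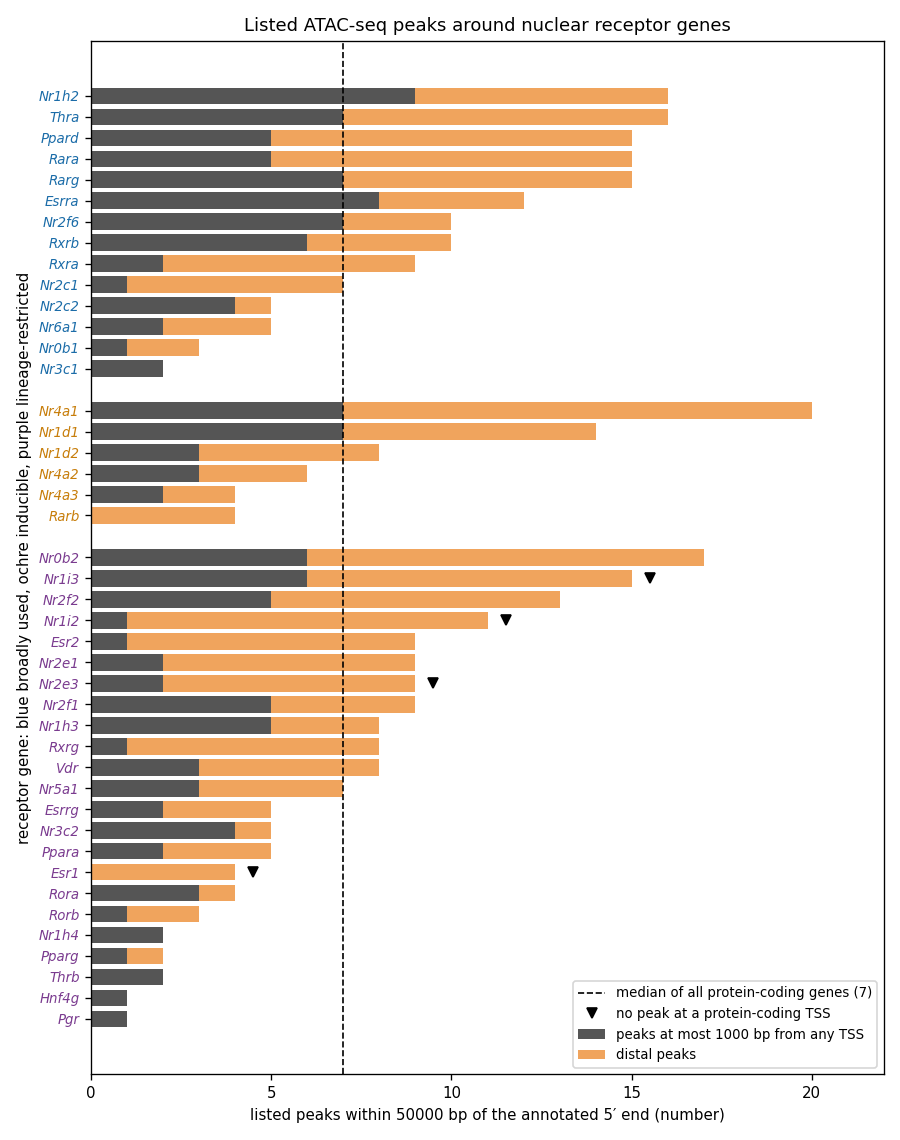
Number of listed peaks within 50000 bp of the annotated 5′ end of each of the 43 receptor genes, with peaks at most 1000 bp from any TSS in grey and distal peaks in orange, the genes grouped by class, and the median of all protein-coding genes as a dashed line at 7. Triangles mark the 4 genes without a promoter peak, all of them lineage-restricted, and the bars run from 1 peak for Pgr and Hnf4g to 20 for Nr4a1.

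Around the 5′ end, within 50000 bp on either side, the receptors had a median of 8 listed peaks (range 1 to 20) and all protein-coding genes a median of 7. Of the 43 genes, 23 were above 7 and 18 below. The broadly used receptors had a median of 10 peaks (range 2 to 16), the inducible ones 7 (range 4 to 20), and the lineage-restricted ones 7 (range 1 to 17). Among the broadly used genes Nr1h2, which encodes the oxysterol receptor LXR beta, and Thra, which encodes thyroid hormone receptor alpha, had 16 peaks each. Rara and Rarg, the retinoic acid receptors expressed in ES cells, and Ppard, a fatty acid receptor, had 15 each. Of the 16 peaks, 2 were nearest to Nr1h2 and 3 to Thra, the rest being nearer to another coding 5′ end. Of the 15 peaks, 6 were nearest to Rara, 2 to Rarg and 9 to Ppard. At the other end of that class stood Nr3c1, the glucocorticoid receptor gene, with 2 peaks and Nr0b1 with 3. Nr0b1 lies on chromosome X. Its 3 peaks were a 1372-bp promoter peak, a 196-bp peak in its intron and a 315-bp peak whose nearest edge lay 4259 bp upstream.

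Among the lineage-restricted genes Nr0b2, which encodes the liver repressor SHP, had 17 peaks, Nr1i3 had 15 and Nr2f2, which encodes COUP-TFII of mesenchyme and veins, had 13. The first 2 of these shared their windows with 5 and 6 other coding genes, and only 3 of the 17 peaks around Nr0b2 were nearest to it. Nr2f2 was unlike them: no other coding 5′ end lay in its window and all 13 peaks were nearest to it. Of the 15 peaks near the Nr2f2 gene, 3 were at its own promoters, 9 lay in the non-coding genes Gm29683 and B130024G19Rik, 2 at starts of non-coding genes and 1 between genes. Pgr (progesterone receptor) and Hnf4g had 1 peak each, and Nr1h4 (bile acid receptor FXR), Pparg (master regulator of fat cells) and Thrb (thyroid hormone receptor beta) had 2 each. In the plot of peak positions these genes have almost empty rows outside the promoter.

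**Figure D2:**
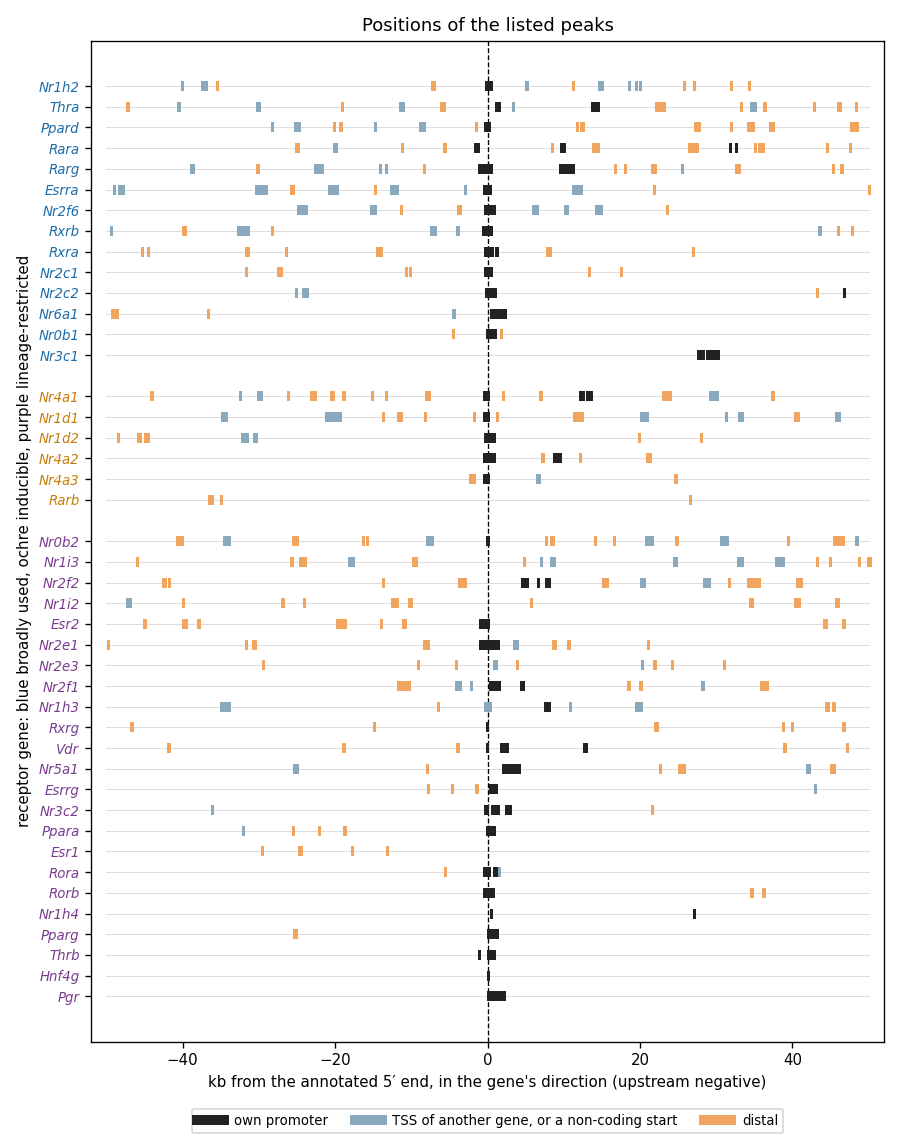
Positions of the listed peaks within 50 kb of the 5′ end of each receptor gene (horizontal axis, kb in the direction of the gene; rows ordered by class and number of peaks), with peaks at the own promoter in black, at other TSS in blue-grey and distal peaks in orange; peaks narrower than 400 bp are drawn 400 bp wide. Rows at the bottom of each class hold few marks, 1 each for Pgr and Hnf4g, and the marks of Nr3c1 lie only downstream of its 5′ end.

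The 2 classes also differed in their neighbouring genes. In the same windows the broadly used receptors had a median of 1 other protein-coding 5′ end, the lineage-restricted genes 0 and all coding genes 2. Only 5 of the 14 broadly used receptors had no other coding 5′ end in the window, against 18 of the 23 lineage-restricted ones. Among the receptors without such a neighbour both classes had a median of 5 peaks, and the 5945 coding genes of that kind a median of 4. With 1 or 2 such neighbours the medians were 15 for 3 broadly used and 10 for 2 lineage-restricted receptors, beside 7 for all coding genes of that kind. With 3 or more they were 13.5 for 6 broadly used and 15 for 3 lineage-restricted receptors, beside 11. The order of the classes thus differed between these strata, which hold few genes. When a peak counted only for the coding gene with the nearest 5′ end, the order was turned around, with medians of 3 for broadly used receptors, 5 for lineage-restricted receptors and 2 for all coding genes. At Rxrb, which encodes retinoid X receptor beta in a gene-dense part of chromosome 17, 1 of 10 peaks was nearest to the gene. At Esrra, which encodes estrogen-related receptor alpha, 1 of 12 was nearest, and 7 of the 12 stood at TSS of other genes. By contrast all 9 peaks around Rxra, which encodes the common partner of many receptors, were nearest to Rxra. The part of gene density in the class difference was not tested.

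**Figure D3:**
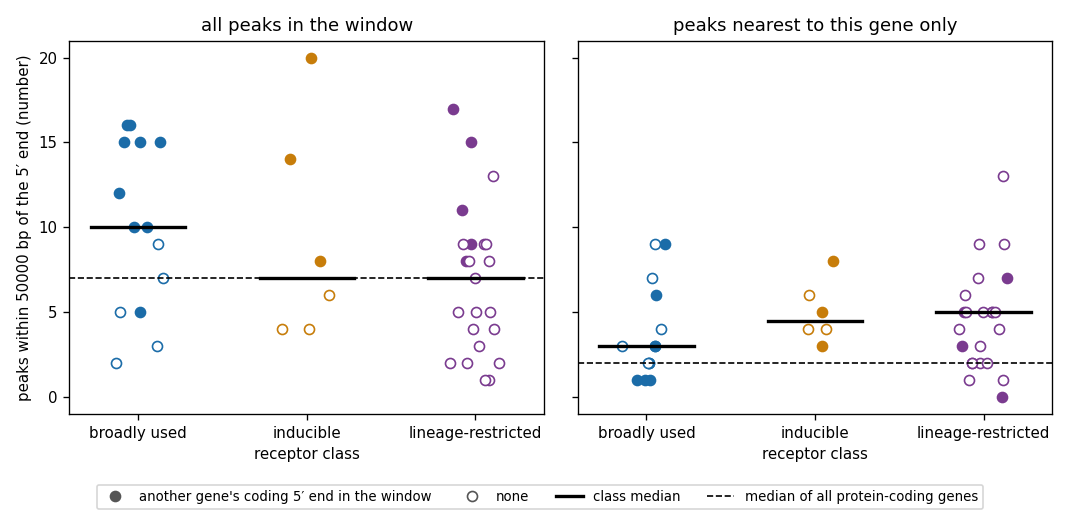
Peaks within 50000 bp of the 5′ end for each receptor (points), on the left all peaks of the window and on the right only those nearer to this gene than to any other coding 5′ end; open points have no other coding 5′ end in the window, bars are class medians and dashed lines the medians of all protein-coding genes. The medians of broadly used and lineage-restricted receptors are 10 and 7 on the left, and 3 and 5 on the right.

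Among the inducible receptors the numbers ran from 4 to 20. Nr4a1, which encodes the immediate early factor NUR77, had 20 peaks, more than any other receptor and more than 97.7% of coding genes. Both of its coding TSS, 12577 bp apart, lay in peaks of 925 and 881 bp, and 8 of the 21 peaks near the gene were between genes. The DR5 shown above lay in one of these, a 553-bp peak at chr15:101233649-101234201. Its relatives Nr4a2 (NURR1) and Nr4a3 (NOR1) had 6 and 4 peaks, all of them nearest to the gene. Nr1d1 and Nr1d2, which encode the clock repressors REV-ERB alpha and beta, had 14 and 8 peaks with promoter peaks of 914 and 1611 bp. Nr1d1 lies next to Thra, and 15 peaks were near both genes. Rarb, which encodes retinoic acid receptor beta and is itself induced by retinoic acid, had 4 peaks around its 5′ end, all distal. Of the 17 peaks near the whole Rarb gene, 12 were in its introns and 1 at its own promoter.

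Many receptor genes have several promoters. The 43 genes had 147 distinct protein-coding TSS, of which 110 (74.8%) had a listed peak within 1000 bp, against 65.1% of all protein-coding TSS. Neighbouring TSS of a gene often share a peak, so these are not independent counts. Of the 38 receptors with 2 or more TSS, 16 (42.1%) had a peak at every TSS, 20 (52.6%) at some but not all, and 2 (5.26%; Esr1 and Nr1i3) at none. Among the 13617 protein-coding genes with 2 or more TSS the shares were 45.6%, 30.8% and 23.6%. Over all 43 receptors the median gene length was 46.5 kb, against 17.4 kb for all protein-coding genes. The part of gene length in these shares was not tested. The following genes are the 20 with a peak at some but not all TSS.

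At Rarb the 2 upstream TSS were 26500 bp (Rarb-203) and 26349 bp (Rarb-204) from a peak. The downstream TSS of Rarb-207 and Rarb-201, 243329 and 243613 bp further on, lay in the 883-bp peak that also covers the DR5 at chr14:16575513-16575529. This DR5 lies downstream of both of these GENCODE TSS (16575827 and 16575543, minus strand), although it precedes the RefSeq start. The annotated 5′ end of Nr3c1 was likewise bare, with the nearest peak 27501 bp away, and 6 TSS between 28120 and 30138 bp downstream lay in peaks of 1017 and 1756 bp. Its last 2 TSS were 1721 and 1734 bp from the wider peak. At Nr5a1, which encodes steroidogenic factor 1 of adrenal and gonad, the 5′ end was 1900 bp from a 2446-bp peak that held the TSS of Nr5a1-202. At Nr2f2 the 5′ end was 2686 bp from a peak, and the TSS of Nr2f2-201 and Nr2f2-204 were at most 325 bp from a 432-bp peak. In these 4 genes the most upstream TSS was without a peak.

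At the other genes the bare TSS lay downstream of one with a peak. Pparg had a 1603-bp peak at its 3 upstream TSS, whereas the TSS of Pparg-207 and Pparg-201 were 21277 and 59644 bp from a peak. Thrb had a 1221-bp peak over its upstream TSS, and those of Thrb-207 and Thrb-202, 302560 and 321268 bp downstream, were 4537 and 13848 bp from a peak. At Rorb, a receptor of brain and retina, the upstream TSS lay in a 1550-bp peak and the downstream one (Rorb-201 and Rorb-202) was 39250 bp from a peak. The TSS of Hnf4g-202 was 32486 bp away from a peak, while Hnf4g-201 was 58 bp from a narrow one of 242 bp. Shorter distances were found for the bare TSS of Esr2-203 (9227 bp), Nr3c2-201 (5656 bp), Nr2c1-202 (4981 bp), Nr2e1-202 (4030 bp) and Rxrg-202 (2103 bp). The 2 downstream TSS of Rxra were 5719 and 7010 bp from a peak.

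The remaining genes of this kind had bare TSS close to a peak. Rarg had 2050- and 1956-bp promoter peaks, and its TSS of Rarg-206 and Rarg-204 were 2273 and 2435 bp away. Distances were 1563 bp for Rara-207, 1640 bp for Ppard-206, 1155 bp for Nr4a2-202 and 2388 bp for Nr4a3-203. At Nr6a1, which encodes the repressor of Pou5f1, the 3 upstream TSS were served by a 2185-bp peak, and the TSS of Nr6a1-207 and Nr6a1-210, 143168 and 143173 bp downstream, were 2024 and 2019 bp from a 198-bp peak. Among genes with a peak at every TSS, the 2 TSS of Rora, 635896 bp apart, lay in peaks of 1042 and 1815 bp, and the 2 pairs of Esrrg TSS, 389036 bp apart at their 5′ members, had peaks of 1114 and 435 bp. The other genes with a peak at every TSS included Nr2f6, a COUP-TF relative, whose RefSeq promoter held 53 CG, more than 99.6% of promoters, and whose TSS had peaks of 1183 and 167 bp. Nr2c2, which encodes testicular receptor 4, had a 1578-bp peak over 2 TSS and a 196-bp peak 67 bp from a CpG-poor one 46625 bp downstream. The 4 coding TSS of Nr1h3, which encodes LXR alpha, lay in a 922-bp peak, and the 3 of Ppara, a fatty acid receptor of liver, in or 76 bp from a 1336-bp peak.

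**Figure D4:**
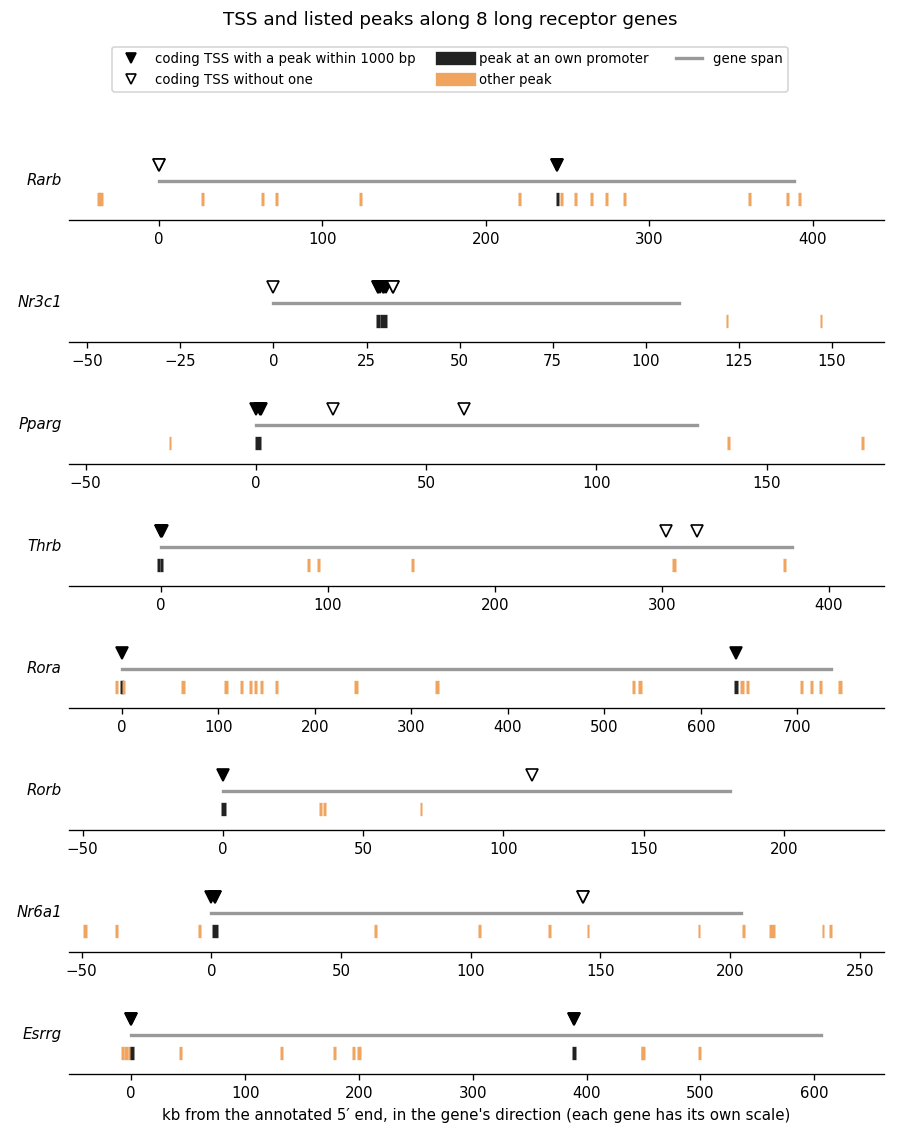
Protein-coding TSS (triangles, filled with a listed peak within 1000 bp and open without) and listed peaks (boxes, black at an own promoter and orange elsewhere; the narrowest are widened to be visible) along 8 receptor genes, with kb from the annotated 5′ end on the horizontal axis and a separate scale for each gene. Open triangles lie upstream in Rarb and Nr3c1 and downstream in Pparg, Thrb, Rorb and Nr6a1, while Rora and Esrrg have filled triangles at both ends.

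The TSS with a peak were richer in CpG. The ratio of observed to expected CpG in the 300 bases around a TSS had a median of 0.707 at the 110 receptor TSS with a peak and 0.188 at the 37 without, and the median GC content was 63.7% and 46.7%. Of the 72 receptor TSS with a ratio of at least 0.6, 70 had a peak, against 97.8% of such TSS in all coding genes. Below 0.6, 40 of 75 had one (53.3%), against 38.2% in all genes. The 2 CpG-rich TSS without a peak were the downstream ones of Nr6a1 (ratios 0.676 and 0.609), and their GC contents of 42.7% and 42.3% were below the median of the TSS without a peak. Broadly used receptors had more CpG-rich TSS (42 of 63) than lineage-restricted ones (21 of 70). Among all coding genes, 24581 of 54361 TSS were CpG-rich. Below 0.6 the counts with a peak were 11 of 21 broadly used, 1 of 5 inducible and 28 of 49 lineage-restricted TSS. Peaks at CpG-poor TSS included those at Nr0b2 (ratio 0.162, 556-bp peak), Vdr-204 of the vitamin D receptor gene (0.147, 172-bp peak) and Thra-203 (0.106, 615 bp from a 1167-bp peak).

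**Figure D5:**
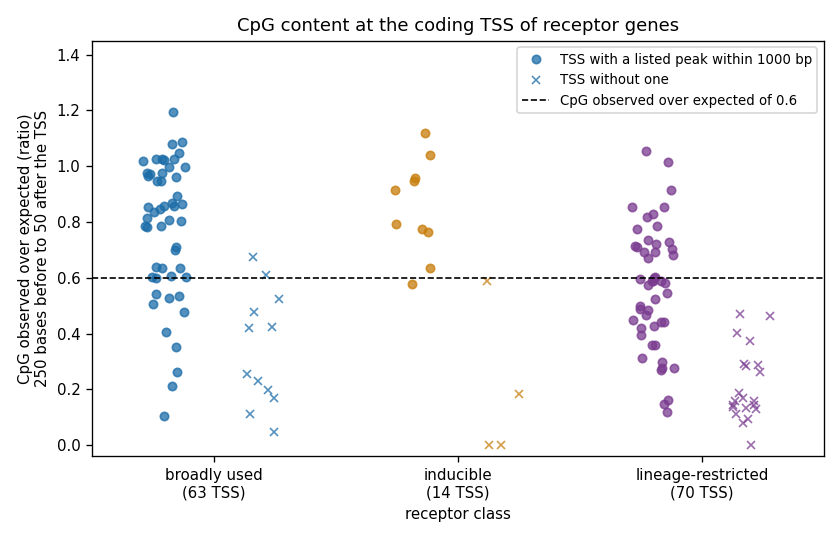
Observed over expected CpG in the 300 bases around each protein-coding TSS of the receptor genes (vertical axis, ratio), by class, for TSS with a listed peak within 1000 bp (circles) and without (crosses); the dashed line is at 0.6. Above the line lie circles and only 2 crosses, both of Nr6a1 among the broadly used receptors, and below it both symbols occur.

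The widest promoter peak of a gene had a median width of 1221 bp over the 39 receptors with one and 1100 bp over the 15222 coding genes with one, and receptors had more TSS over which the widest was taken. The 95th percentile of all genes was 1850 bp, and 5 of the 39 receptors (12.8%) exceeded it: Nr2e1, the TLX gene of neural stem cells, with 2702 bp, Nr5a1 with 2446 bp, Pgr with 2442 bp, Nr6a1 with 2185 bp and Rarg with 2050 bp. Of these, 3 were lineage-restricted. The Nr2e1 peak also covered a TSS of the neighbouring gene Ostm1. Narrow promoter peaks, under 600 bp, were found at Nr1h4 (220 bp), Hnf4g (242 bp), Rxrg (415 bp) and Nr0b2 (556 bp), all lineage-restricted, and at 9.93% of coding genes. By class the medians were 1262 bp for broadly used, 1221 bp for lineage-restricted and 919.5 bp for inducible receptors, the last below that of all genes.

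The 496 peaks made 516 pairs of a peak and a receptor gene, because 20 peaks were near 2 receptors. Of these pairs, 65 were at the receptor's own promoter, 12 at the start of one of its non-coding transcripts, 103 in its introns and 11 in its exons. Another 114 were at a TSS of another gene, coding or not, 82 inside another coding gene, 18 inside a non-coding gene and 111 between genes. Broadly used receptors had 30.4% of their 191 pairs at TSS of other genes and lineage-restricted receptors 17.1% of 252, while 15.7% and 21.4% lay in their own introns. The largest numbers of intronic peaks were at Rora (16), Rarb (12) and Ppard (8), followed by Rxra, Nr3c2 and Esrrg with 7 each. Own-promoter peaks were wider (median 925 bp) than own-intron peaks (355 bp). The whole list had the same order, with medians of 815 bp for peaks at most 1000 bp from a TSS and 352 bp for distal peaks.

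Distal peaks near the receptors held the half-site and the extended half-site about as often as all distal peaks. Direct repeats were too few to compare. Of 314 distal peaks near receptor genes (median width 391.5 bp), 61.8% had a half-site, beside 60.1% of all 76716 distal peaks (median width 352 bp). The extended half-site TCAAGGTCA was in 10 of the 314 (3.18%, beside 3.08%), among them a peak in a non-coding gene beside Nr2f1, 1 beside Nr2f2 and 1 upstream of Esr1. A DR2 and a DR5 were found in 1 distal peak each, near Nr0b2 and near Nr4a1. Each was 0.3185% of the 314, beside 0.6231% for DR2 and 0.3194% for DR5 in all distal peaks. The CTCF consensus, with up to 1 mismatch, was in 49 of the 314 (15.6%, beside 13.6%). No DR1 or DR4 was found in the 314, beside 0.387% and 0.295% of all distal peaks. A count of 0 says only that these letters were not there. With promoter-proximal peaks counted, a DR1 was in 4 of the 496 peaks (0.806%, beside 0.416% of all listed peaks). These were the Esrra promoter peak and peaks at TSS of other genes near Nr2c2, Nr1h2 and Rxrb. A DR4 was in 1 of the 496 peaks (0.202%, beside 0.266% of all listed peaks), near Nr2c2.

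The octamer ATGCAAAT was in 5 of the 314 distal peaks (1.59%, beside 2.52%), and the composite OCT4::SOX2 motif in 2 (0.637%, beside 0.833%), which were the intronic peaks of Nr1h4 and Rxra. With promoter-proximal peaks counted, 4 of the 496 peaks held it (0.806%), as did 0.781% of all listed peaks. One of them was the 283-bp peak at chr8:76863153-76863435, which lay 36007 bp upstream of Nr3c2, the mineralocorticoid receptor gene. It lies within the non-coding gene Gm10649 and at the start of the pseudogene Gm5353. An exact match like this one was found in 3 of all 102373 peaks, and a composite match together with TCAAGGTCA in 34 (0.0332%). These counts are for a fixed consensus with up to 2 mismatches, and weaker forms of the composite motif were not counted. The study searched for motifs with HOMER, a different method, so its motif shares cannot be set beside these. Among the 11042 peaks of 250 to 320 bp, 71 (0.643%) held the composite motif, 242 (2.19%) TCAAGGTCA and 3 both. The match in the promoter peak of Thra stood 1399 bp downstream of the annotated 5′ end, inside a 781-bp peak that holds 3 of its TSS.

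With promoter-proximal peaks counted, TCAAGGTCA was in 15 of the 496 peaks (3.02%, beside 2.82% of all listed peaks). Promoter peaks of Rara, Esrra and Vdr were among them. At Esrra, the gene of a factor that binds this motif, the 1215-bp promoter peak at chr19:6921227-6922441 held TCAAGGTCA and a DR1. The TCAAGGTCA match at Rara lay in a 755-bp peak that was 980 bp from the 5′ end. The match at Vdr lay in the 599-bp peak beside the downstream TSS of Vdr-202. None of the 57 RefSeq promoters of receptors held TCAAGGTCA, which 0.423% of all RefSeq promoters did.

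The other genes of the pathway were described in the same way, with lists set from general knowledge. Of 16 co-regulators, 15 had a promoter peak (Wilson interval 71.7 to 98.9%), beside 69.4% of all coding genes. Their median was 7.5 peaks around the 5′ end, beside 7. The exception was Ppargc1a, the gene of a coactivator of energy metabolism, whose 5′ end was 15341 bp from a peak. At the 5′ end 14 of the 16 had a CpG ratio of at least 0.6, and all 14 had a promoter peak. Of all 21938 coding genes 9734 had such a ratio, and 9562 of these had a promoter peak. Co-regulators also had a median of 4 coding TSS, against 2 for all coding genes. Ncoa3, the gene of an NCOA coactivator, had 17 peaks, all nearest to it. Of 12 genes that bind, make or degrade retinoids, 9 (75%) had a promoter peak, a share near that of all coding genes, with a median of 8.5 peaks. Among those without one were Stra6, which encodes a membrane protein of retinol uptake, and Aldh1a1, which encodes an enzyme of retinoic acid synthesis, with the nearest peak 2521 and 41282 bp from the 5′ end. Crabp2, which encodes a retinoic acid carrier, had 15 peaks and Dhrs3, which encodes a retinal reductase, 12. Among the enzymes that degrade retinoic acid, Cyp26a1 had a 1548-bp promoter peak, Cyp26b1 a 668-bp one and Cyp26c1 a 270-bp one. Cyp26a1 and Cyp26c1 are neighbours, so their 9 peaks each are in part the same.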

How the data were processed

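ATAC-seq peaks of ZHBTc4 cells were analysed. The authors aligned reads to mm10 with STAR 2.6.1c, removed duplicates with Picard, called peaks with MACS2 2.1.1.20160309 and used bedtools to merge the peaks of the 16 libraries with dox. What was deposited gives chromosome, start and end in 3 columns, without a count, score or value per library. The study's methods name removal of peaks over 5 kb, but 7 listed peaks are wider than 5000 bp. Whether the list is complete was not established.

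Starts were converted to count from 1. Distances run from the nearest edge of a peak. Promoter peaks were judged by the TSS of protein-coding transcripts of GENCODE M21 (for 85 genes without one, the 5′ end). Windows and distances to the 5′ end used the annotated 5′ end of the gene, which is not always a coding TSS. A peak was distal when over 1000 bp from every TSS. CpG ratios used 250 bases before and 50 from the TSS. Motifs were searched on both strands of GRCm38.p6. Named genes were all receptors without a promoter peak, with TSS of both kinds, inducible, or with the most peaks of a class, and the rest were summarised, with some added after their values were seen. Members, classes and lists were chosen with earlier results of these data known. A few genes are not reported here. Functions were tested on simulated data. Tools were pandas 2.3.3 and numpy 2.4.6 under Python 3.11.15, with scipy 1.17.1 for Wilson intervals and matplotlib 3.10.9 for figures.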

Additional observations from a re-analysis of the deposited data

How the results depend on the processing

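Of 28 alternative settings, 17 left a result within its limits, 10 moved it and 1 reversed it. The median of 8 peaks around a receptor's 5′ end became 4 with a window of 25000 bp, 14 with 100000 bp, 4 with distal peaks only and 4 with only the peaks nearest to the gene, and the medians of all coding genes in these settings were 4, 14, 4 and 2. The difference of 3 peaks between the medians of broadly used and lineage-restricted receptors was reversed to -2 with only the nearest peaks. It became 1 with distal peaks only, 0 among receptors without another coding 5′ end in the window, and 13.5 with a window of 100000 bp; the last 2 settings were chosen after seeing the data. The share of receptor TSS with a peak went from 74.8% to 66.8% with the TSS of every transcript. The share among all coding genes was not computed for that setting, so 66.8% has no value beside it. The share of distal peaks with a half-site went from 61.8% to 30.6% with AGGTCA alone and to 41.7% in the central 200 bp, beside 30.8% and 39.4% of all distal peaks. The cause of these moves was not tested beyond the settings' own construction. The count of 39 receptors with a promoter peak stayed between 36 and 41.

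No paired analysis was possible because replicates were merged into 1 set of peaks. Leaving out a library was not run for the same reason, and the depth is unknown.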

Other observations

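Counted over the gene with 50000 bp on each side, receptors had a median of 8.12 listed peaks per 100 kb, broadly used receptors 9.98, inducible receptors 5.89 and lineage-restricted receptors 7.63. The median of all protein-coding genes was 6.97, and the whole assembly held 3.87 peaks per 100 kb. Among receptors the highest densities were those of Nr4a1 (17.4), Nr0b2 (16.5) and Nr1h2 (16.3), and the lowest those of Pgr (1.19), Hnf4g (1.20), Esr1 (1.42) and Rorb (1.43). These genes were singled out after their values were seen.

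Nr5a1 and Nr6a1 are neighbours on chromosome 2, and 5 peaks were near both. One of them was the 2446-bp promoter peak of Nr5a1, which in these counts also belongs to the surroundings of Nr6a1, and another was an 863-bp peak at the start of a non-coding Nr6a1 transcript.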
